A study of Mus musculus with 4 samples.

Results

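The Ly6 genes encode small proteins of the cell surface, most of them held in the membrane by a lipid anchor. The 6 members were taken by their symbols from the count matrices of a mouse melanoma infiltrate, namely Ly6a, Ly6c1, Ly6c2, Ly6d, Ly6e and Ly6i, and these are 6 of the 27998 genes listed. They were chosen by measured values of these same data among other things, namely the levels of Ly6a in knockout and wild-type dendritic cells, where Ly6a had been seen to be lower in the knockout. The genotype values of the dendritic cells are therefore given as a description without a test. The 6 genes lie on mouse chromosome 15 (GRCm38), from Ly6d at 74762056 to 74763620, through Ly6e (74955051 to 74959905), Ly6i (74979534 to 74983430), Ly6a (74994877 to 74998031) and Ly6c1 (75044018 to 75048830), to Ly6c2 (75108158 to 75111970). Ly6e is annotated on the plus strand and the other members on the minus strand.

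B16F10 melanoma cells carrying the model antigen ovalbumin (1000000 per mouse) were grown under the skin of C57BL/6 wild-type mice or of mice with a conditional deletion of the microRNA miR-155 in T cells. The driver that deletes miR-155 is not given in the sources used here, and no other allele or treatment is named. Tumours of more than 4 mice per group were pooled at day 9 or day 12, and live CD45-positive leukocytes were sorted and profiled with a 3′ droplet assay that counts unique molecular identifiers (UMIs). There was thus 1 library for each of 4 groups: wild-type day 9, knockout day 9, wild-type day 12 and knockout day 12. Values below are given in that order. Pooling leaves no measure of the spread between mice, and no group has a replicate library. In a fit of genotype and day, the residual is therefore how far the genotype effect differs between the days. In a fit of a pair of cell types, it is how far their difference varies over the libraries. Each p-value weighs an effect against this residual and a spread estimated over all genes.

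The libraries held 1778, 3749, 3684 and 2059 barcodes with a median of 9655, 7747, 7379 and 7770 UMIs per barcode, and 66 of 11204 distinct barcodes occurred in more than 1 library. Cells were assigned to types by their own marker transcripts, none of which was a Ly6 gene. Mir155hg, the primary transcript of miR-155, was used to check the labels, which it could do for day 9 only. CD8 T cells held 82 and 15 UMIs of it in the wild-type libraries of day 9 and day 12 and 0 in both knockout libraries. Mature dendritic cells of the knockout mice held 9 and 60 UMIs, so the transcript was present outside the T cells. A level is given as UMIs per 1000000 UMIs of the cells of that type in that library (CPM), and an interval on a level, share or ratio covers counting error only. At day 9 Mir155hg in CD8 T cells stood at 8.75 CPM in the wild-type and 0 CPM (interval 0 to 1.61) in the knockout. Without the cells gated as naive-like, these levels were 8.97 and 0 CPM (0 to 3.28). At day 12 they were 10.1 and 0 CPM in all CD8 T cells, with only 59 knockout cells. The knockout interval there, 0 to 11.9 CPM, includes the wild-type level, so the day 12 label was not checked.

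Ly6a, known as Sca-1, marks blood stem cells and activated lymphocytes and is induced by interferons. Ly6c1 and Ly6c2 encode the Ly-6C antigens, of which Ly6c2 marks classical monocytes and many memory CD8 T cells. Ly6d marks early B-lineage commitment and is also carried by plasmacytoid dendritic cells (pDC), Ly6e is a broadly expressed interferon-induced member known for limiting the entry of some viruses, and Ly6i is a close relative of Ly6a found on myeloid cells. MicroRNA miR-155 is made on activation of lymphocytes and myeloid cells and lowers mRNAs that carry a match to its seed, the stretch near its 5′ end that pairs with targets.

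The seed of the deleted microRNA is shown first, because a match to it is what a direct target would carry. The mature strand, from RefSeq (GRCm38.p6, chr16:84714143-84714165, plus strand), is printed with bases 2 to 8 in capitals.
mmu-miR-155-5p: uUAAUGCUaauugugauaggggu
The DNA match to that seed, AGCATTA, occurred 0 times in the annotated 3′ untranslated region of each of the 6 members, whose lengths ran from 300 bases for Ly6d to 1192 bases for Ly6e. It occurred in 1551 of 20690 genes with such a region (7.50%). A missing match says only that these letters are not in the form searched, which was that of the transcript with the longest coding sequence.

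Promoter sequences are shown for Ly6c1 and Ly6c2, neighbours that share a stretch of transcript and are the only 2 members matched in the RefSeq promoter table (GRCm38.p6). Each run is 300 bases around the annotated start on the minus strand, at chr15:75048788-75049087 for Ly6c1 and chr15:75111922-75112221 for Ly6c2. Capitals mark matches to a TATA motif (TATAAA) in Ly6c1 and to a PU.1 motif (GAGGAAGT), read by a factor of myeloid cells, in Ly6c2.
Ly6c1 promoter: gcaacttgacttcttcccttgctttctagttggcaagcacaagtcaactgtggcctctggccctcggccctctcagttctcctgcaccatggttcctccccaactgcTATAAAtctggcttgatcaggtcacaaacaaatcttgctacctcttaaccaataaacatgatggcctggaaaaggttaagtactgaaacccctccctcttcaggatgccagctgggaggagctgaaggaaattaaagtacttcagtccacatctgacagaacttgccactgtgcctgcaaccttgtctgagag
Ly6c2 promoter: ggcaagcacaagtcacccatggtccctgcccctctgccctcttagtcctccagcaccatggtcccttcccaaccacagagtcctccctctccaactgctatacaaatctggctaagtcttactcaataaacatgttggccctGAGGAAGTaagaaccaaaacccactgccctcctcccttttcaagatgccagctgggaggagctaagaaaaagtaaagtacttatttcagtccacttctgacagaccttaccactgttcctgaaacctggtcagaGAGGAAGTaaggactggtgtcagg
The pair aligned with 62.3% identity (208 of 334 columns). Searched on both strands, PU.1 matched Ly6c2 at 2 places, whose first bases lie at -108 and 26 relative to the start, and did not match Ly6c1; 3.20% of 32851 promoters held it. TATAAA matched Ly6c1 at 1 place (-143) and did not match Ly6c2, and 13.6% of promoters held it. The core of the interferon-stimulated response element (GAAA, any 2 bases and GAAA, in 3.44% of promoters) matched neither. These matches are descriptions of letters, not of binding.

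Coding sequences placed Ly6a closest to Ly6i (86.3% identity), followed by Ly6a with Ly6c2 (81.6%), Ly6c2 with Ly6i (81.3%) and Ly6c1 with Ly6c2 (80.8%). Gaps count as columns in these values. The form with the longest coding sequence was taken, which has 441 bases for Ly6c1 and 393 for Ly6c2. That pair had 362 matches over 448 columns, so its value is lowered by gaps and its place in this order is not resolved. Every pair with Ly6d or Ly6e stood between 46.9% and 53.5%. Because the assay reads the 3′ end, the last 400 bases of each transcript were also compared. Of the 50-base windows in the 3′ end of Ly6c2, 88 of 351 (25.1%) occurred somewhere in a transcript of Ly6c1. In the other direction, 0 of 351 windows in the 3′ end of Ly6c1 occurred in a transcript of Ly6c2. That 3′ end was the one of the form with the longest coding sequence. No other pair shared a window. Counts of Ly6c1 and Ly6c2 are therefore uncertain where a read falls in the shared stretch, and how the counting treated such reads is not given in the sources used here. Over all barcodes Ly6c1 collected 623 UMIs and Ly6c2 153494; in CD8 T cells of the wild-type day 9 library the sum of both was 1746 CPM and Ly6c2 alone 1742 CPM.

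**Figure D1:**
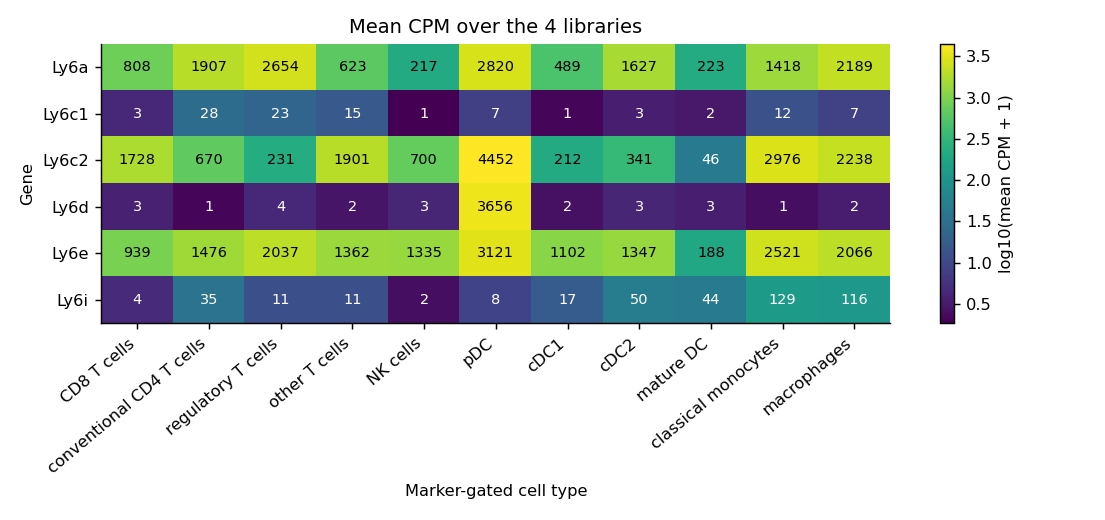
Mean level of each Ly6 member over the 4 libraries by cell type (number in each cell, CPM; colour, log10 of CPM + 1); rows are genes and columns marker-gated types. Ly6d has 3656 CPM in pDC and is near 0 in the other 10 types shown, and Ly6e has its lowest mean, 188 CPM, in mature dendritic cells.

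Ly6d was the member with the narrowest range of cell types. In pDC it stood at 4278, 3455, 3413 and 3478 CPM, in 36, 235, 26 and 19 cells. B cells numbered only 5, 6, 8 and 13, and in them Ly6d stood at 670.5, 1792, 2047 and 2269 CPM. In every other type taken as a whole it lay between 0 and 8.95 CPM, so the ranges of pDC and of every such type did not overlap. After each cell was thinned to 2000 UMIs, Ly6d was detected in 91.7%, 90.2%, 80.8% and 89.5% of pDC and in 0.300%, 1.61%, 0% and 0% of CD8 T cells, which should lack it. The last 2 shares are 0 of 235 and 0 of 59 cells.

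Ly6c2 was also highest in pDC, at 4296, 3409, 4502 and 5600 CPM. Classical monocytes followed at 3111, 1605, 5117 and 2070 CPM and macrophages at 4169, 674, 2915 and 1194 CPM. These 3 ranges overlapped, and so did those of macrophages, other T cells and CD8 T cells. CD8 T cells stood at 1742, 1523, 1779 and 1870 CPM. Natural killer (NK) cells came next at 998, 474, 732 and 595 CPM, below the CD8 range. Mature dendritic cells were lowest at 27.4, 62.3, 59.1 and 36.3 CPM.

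Ly6e was found in every type. It was again highest in pDC (3632, 3183, 2653 and 3017 CPM), and regulatory T cells (1908, 1884, 2042 and 2315 CPM) stood above conventional CD4 T cells (1554, 1565, 1385 and 1399 CPM) without overlap. Mature dendritic cells, the migratory state that has taken up antigen and turned on Ccr7, stood far below all other types at 226, 216, 157 and 153 CPM. CD8 T cells, the next lowest, held 751, 905, 971 and 1130 CPM, so those ranges did not overlap either.

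Ly6a had no single top type. Its mean level over the 4 libraries ran from 2820 CPM ± 778 (SD, n = 4 libraries) in pDC through 2654 CPM ± 720 in regulatory T cells, 2189 CPM in macrophages, 1907 CPM in conventional CD4 T cells, 1627 CPM in conventional type 2 dendritic cells (cDC2) and 1418 CPM in classical monocytes, to 808 CPM in CD8 T cells. Below these lay other T cells at 623 CPM, conventional type 1 dendritic cells (cDC1) at 489 CPM, mature dendritic cells at 223 CPM and NK cells at 217 CPM. The ranges of every 2 neighbours in this order overlapped, so the order is not resolved by these libraries.

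Ly6i and Ly6c1 were sparse. Ly6i lay at 110, 99.7, 259 and 49.5 CPM in classical monocytes and at 138, 162, 133 and 32.9 CPM in macrophages. Non-classical monocytes, as few as 4 cells in a library and given at the end, stood above both except at wild-type day 9. In cDC2 it stood at 83.9, 53.2, 46.4 and 14.9 CPM. Its level in NK cells and CD8 T cells did not pass 6.76 CPM. Ly6c1 reached its highest levels in conventional CD4 T cells of the knockout day 9 library (80.5 CPM, from 20 UMIs) and in regulatory T cells of the knockout day 12 library (56.5 CPM, from 18 cells).

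The difference between cell types was tested within libraries, with edgeR's quasi-likelihood test on summed counts, library as a block and Benjamini-Hochberg adjustment over all genes. Of 19 tests of members in 5 pairs of types, 13 passed an adjusted p of 0.05. Mature dendritic cells had lower levels of 3 members than cDC2. Ly6e was lower by a log2 fold change of -2.56 (adjusted p = 1.29e-11), Ly6c2 by -2.50 (adjusted p = 5.85e-09) and Ly6a by -2.47 (adjusted p = 4.22e-07). In this pair 31.4% of all 7390 genes tested passed on the lower side and 25.8% on the higher side, so a call was common, while Ly6i did not pass (log2 fold change 0.27, adjusted p = 0.389). Each of the 3 calls held under all 11 alternative settings.

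Between the conventional dendritic types, cDC1 held less Ly6a than cDC2 (log2 fold change -1.82, adjusted p = 0.000183, edgeR). Ly6i was lower as well (-1.51, adjusted p = 0.00739), and so was Ly6e by a smaller margin (-0.28, adjusted p = 0.0208); 13.6% of all genes passed on that side and 13.1% on the higher. The Ly6e call was lost with DESeq2 and without the knockout day 12 library (log2 fold change between -0.33 and -0.17 over the alternatives). In lymphoid cells, CD8 T cells exceeded NK cells in Ly6a by 2.11 log2 units (adjusted p = 0.00107) and in Ly6c2 by 1.46 (adjusted p = 0.00159), where 3.12% of genes passed on the higher side and 4.94% on the lower side.

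Within CD8 T cells, those gated as naive-like by their markers held less Ly6a than the rest. Ly6a stood at 417, 528, 487 and 413 CPM in the naive-like cells and at 1215, 544, 1074 and 630 CPM in the others. Each library was lower in the naive-like cells, by little at knockout day 9. The log2 fold change was -0.57 (edgeR adjusted p = 0.0383; 8.67% of genes passed on the lower side), and 8 of 11 alternatives lost the call. Ly6c2 went the other way (0.37, adjusted p = 0.0254; 6.94% on the higher side), a call that 6 of 11 alternatives lost.

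Classical monocytes, the blood-derived precursors of many tumour macrophages, differed from macrophages in the balance of the members. Ly6a was lower in monocytes by a log2 fold change of -0.92 (edgeR adjusted p = 0.00157; 8.59% of genes passed on the lower side) in all 11 alternatives. Ly6c2 was higher by 0.67 (adjusted p = 0.0192) and Ly6e by 0.37 (adjusted p = 0.0222), with 9.23% of genes on the higher side. Ly6c2 lost its call in 5 of 11 alternatives and Ly6e in 4 of 11, among them the settings without the wild-type day 12 or the knockout day 9 library. Ly6i (0.15, adjusted p = 0.698) and Ly6c1 (0.82, adjusted p = 0.121) did not pass.

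In the dendritic cells, the contrast by which Ly6a had been chosen, cDC2 held 2648, 916, 2031 and 915 CPM of Ly6a. Both knockout libraries lay below both wild-type libraries. The knockout to wild-type ratio was 0.346 (95% interval 0.324 to 0.370) at day 9 and 0.451 (0.421 to 0.481) at day 12. In cDC1 Ly6a stood at 759, 474, 626 and 95.8 CPM, and its ratios were 0.624 (0.547 to 0.711) at day 9 and 0.153 (0.126 to 0.185) at day 12. The knockout libraries were again the lower ones, most of all at day 12.

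The other dendritic types did not show this at both days. In pDC Ly6a was 3319, 1659, 3167 and 3132 CPM, so only the knockout day 9 library stood low, with a ratio of 0.500 (0.463 to 0.540) at day 9 and 0.989 (0.875 to 1.12) at day 12. Mature dendritic cells held 147, 359, 253 and 131 CPM, and the ratio was 2.44 (1.75 to 3.48) at day 9 and 0.519 (0.425 to 0.635) at day 12. The high value at knockout day 9 came from 6 of 59 cells, with 6.50 UMIs each on average after thinning, against 6 of 33 cells with 1.17 UMIs in the wild-type library. Under a stricter gate or with types taken from clusters, the day 9 log2 ratio turned to -1.35 and -2.47. Ly6a was thus at least 1.5-fold lower at both days in 2 of 4 dendritic types, namely cDC1 and cDC2. Of all genes with enough UMIs, 2.58% in cDC1, 2.63% in cDC2, 0.802% in pDC and 1.81% in mature dendritic cells met that rule.

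**Figure D2:**
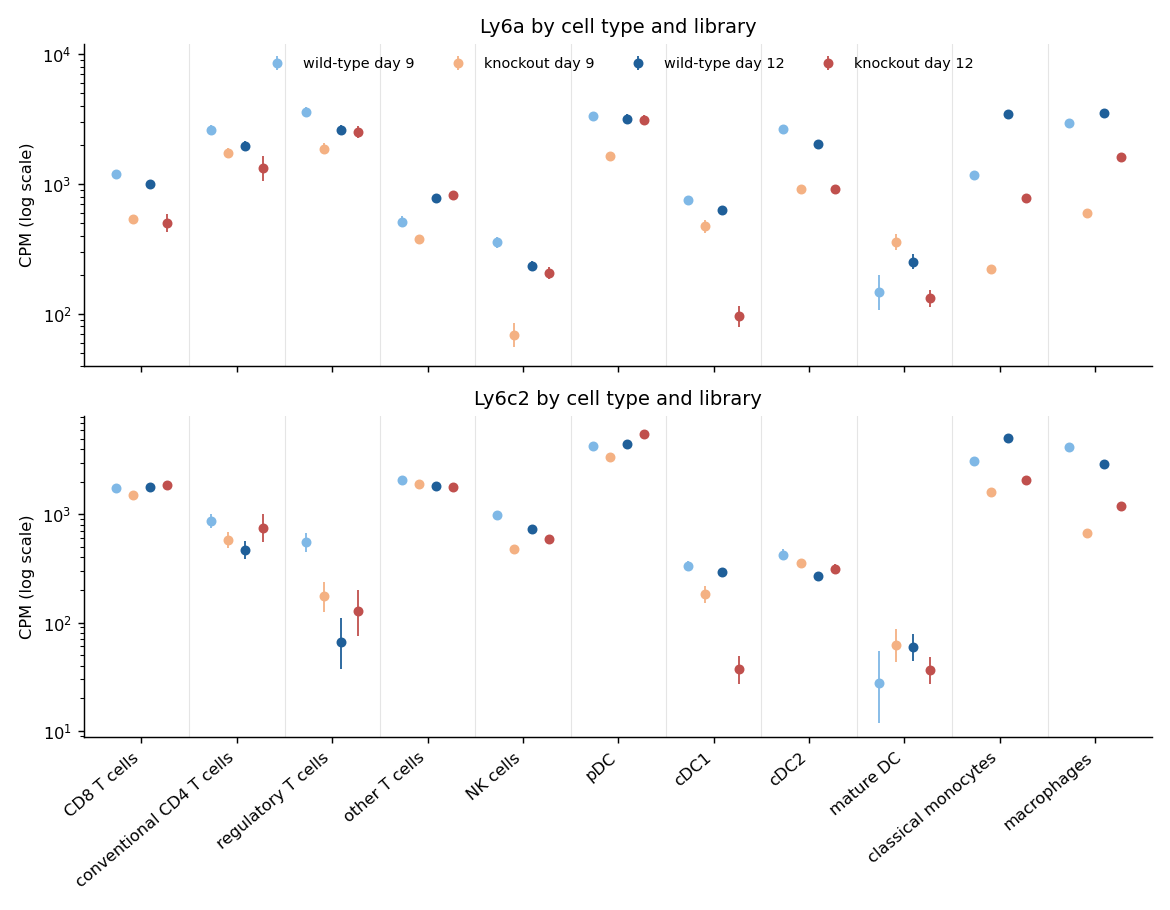
Level of Ly6a and Ly6c2 (CPM, log axis) in each cell type and library; each point is 1 library and bars are exact 95% Poisson intervals of counting error. In cDC2 the 2 knockout points for Ly6a (916 and 915 CPM) lie below the 2 wild-type points (2648 and 2031 CPM), while Ly6c2 in CD8 T cells lies between 1523 and 1870 CPM in all 4 libraries.

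Other members in the dendritic cells followed different courses. Ly6c2 in cDC1 stood at 334, 182.6, 295 and 36.9 CPM, with ratios of 0.547 (0.442 to 0.673) and 0.125 (0.0900 to 0.169). In cDC2 it stood at 426, 356, 267 and 314 CPM, with ratios of 0.836 and 1.17 that lay on either side of 1. Ly6e was moderately lower in knockout cDC1 (ratios 0.698 and 0.614) and cDC2 (0.688 and 0.842). Ly6i in cDC2 was lower in the knockout library of each day, at ratios of 0.634 (0.454 to 0.893) and 0.322 (0.183 to 0.535).

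The share of cells with a Ly6a UMI, taken after thinning every cell to 2000 UMIs, lay on the same side in cDC1 and cDC2. In cDC2 the share was 79.7%, 39.2%, 73.4% and 48.2%, and in cDC1 50%, 28.9%, 38.6% and 17.4%. In pDC it was 88.9%, 74.5%, 73.1% and 84.2%, with overlap between the genotypes. No gated type is known to lack Ly6a altogether, so the lowest shares, 5.71% in NK cells of the knockout day 9 library and 5.59% in mature dendritic cells of the knockout day 12 library, bound what free RNA could give there. Both are knockout sums and set no bound for the wild-type libraries. The cells of these 2 sums had median depths of 3930 and 8114 UMIs, against 9990 to 11725 UMIs in cDC2. Over all barcodes Ly6a collected 29572 of 21448114, 20215 of 33902064, 70107 of 29662903 and 18255 of 18783490 UMIs. Whole libraries of the knockout thus also held less Ly6a, and the part of free RNA in the dendritic values was not tested.

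**Figure D3:**
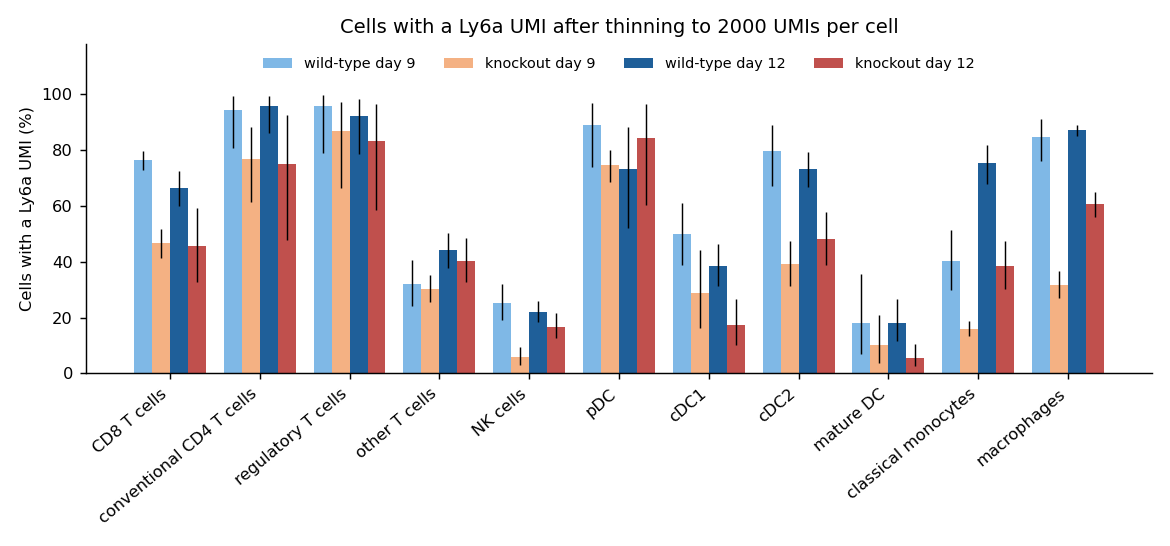
Share of cells with at least 1 Ly6a UMI (percent) after thinning each cell to 2000 UMIs, by cell type and library (bars), with exact 95% binomial intervals as error bars. In cDC2 the knockout shares are 39.2% and 48.2% and the wild-type shares 79.7% and 73.4%; in other T cells all 4 lie between 30.2% and 44.1%.

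The gated cDC2 were spread over clusters unequally. Cluster 4, with 2220 CPM of Ly6a, held 76.3%, 47.7%, 65.8% and 52.7% of them. Clusters 16 and 19, with 855 and 703 CPM, held 28.8% and 13.1% at knockout day 9, and with types taken from clusters the day 9 log2 ratio of Ly6a in cDC2 was -1.19. Markers of neighbouring cell types also differed between the libraries, not all in the direction of Ly6a. Summed over the 7 classical monocyte markers, cDC2 held 3565, 2116, 2369 and 2039 CPM and cDC1 2363, 1625, 1989 and 1426 CPM, so the knockout libraries were lower at each day. The 7 macrophage markers summed to 140, 255, 301 and 441 CPM in cDC2, higher in the knockout at each day. The 6 endothelial markers, another known source of Ly6a, summed to 66.3, 17.2, 25.3 and 21.6 CPM in cDC2 with 2 or 3 detected, and the 5 fibroblast markers were at 0 in both day 9 libraries and at most 2.49 CPM. Their part in the Ly6a values was not tested.

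Genotype was tested outside the dendritic cells, in a fit per type with day and genotype as terms. The members gave 21 such tests in CD8 T cells, other T cells, NK cells, classical monocytes and macrophages, of which 4 passed on the lower side in the knockout and 0 on the higher side. Across all genes the lower side held 3.56% of those tested in CD8 T cells, 0.435% in other T cells, 0.0127% in NK cells, 0.0761% in classical monocytes and 0.426% in macrophages. The higher side held 3.11%, 0.225%, 0.0127%, 0.0304% and 0.467% in the same order. The fit has 1 residual degree of freedom, and it assumes the same effect at both days.

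Classical monocytes held 1178, 221, 3487 and 786 CPM of Ly6a, the knockout library lying below the wild-type library of its day by ratios of 0.188 (0.173 to 0.205) and 0.225 (0.209 to 0.243). The ranges of the genotypes did not overlap, although day 12 was higher than day 9 in each. Ly6a fell by a log2 fold change of -2.28 (edgeR adjusted p = 0.0153, in 2 of 2 days). With types taken from clusters the log2 fold change was -0.82 (adjusted p = 0.0622), and with RLE factors the adjusted p was 0.0534. The gated monocytes lay in different clusters. Clusters 14 and 12, mostly of macrophages and with 4673 and 3431 CPM of Ly6a, held 14.9% and 21.8% of them at wild-type day 9 and 31.5% and 25.3% at wild-type day 12. Clusters 20 and 7, with 199 and 43.7 CPM, held 33.4% and 29.2% at knockout day 9, and the part of this in the Ly6a values was not tested. Ly6c2, the marker of these cells, stood at 3111, 1605, 5117 and 2070 CPM; its log2 fold change of -1.13 did not pass (adjusted p = 0.106), although 4 of 7 alternatives called it.

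Macrophages had 2979, 603 and 3553 CPM of Ly6a in the first 3 libraries and 1619 CPM at knockout day 12, and Ly6c2 stood at 4169, 674, 2915 and 1194 CPM. For both genes each knockout library lay below both wild-type libraries. Ly6a fell by a log2 fold change of -1.73 (edgeR adjusted p = 0.0329) and Ly6c2 by -1.97 (adjusted p = 0.0286). Both calls were lost when the highest doublet scores were kept (adjusted p = 0.0564 and 0.0518) or the gate was made stricter (0.115 for both). Ly6e (2565, 1377, 2366 and 1955 CPM; -0.60) and Ly6c1 (-1.58) were lower without passing, at adjusted p of 0.406 and 0.115.

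The macrophages of the genotypes differed in more than these genes. When cells were clustered without the Ly6 members, cluster 14 held 38.8% and 39.3% of wild-type macrophages at day 9 and day 12, whereas cluster 19 held 45.8% of the knockout macrophages at day 9 and cluster 11 held 26.8% at day 12. Summed classical monocyte markers in macrophages stood at 6269, 3089, 5827 and 4038 CPM, lower in the knockout. Within macrophages with monocyte markers the Ly6a ratios were 0.182 and 0.421, and within those with few such markers 0.216 and 0.482, close to the ratios of all macrophages (0.203 and 0.456). Ly6c2 ratios were 0.170 and 0.428 in the former and 0.175 and 0.316 in the latter. Melanoma transcripts in macrophages summed to 186 CPM at knockout day 9 and to between 9.64 and 26.9 CPM in the other libraries, and their part was not tested.

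CD8 T cells held 1186, 535, 1008 and 501 CPM of Ly6a, the knockout being lower at each day by ratios of 0.452 (0.425 to 0.479) and 0.496 (0.418 to 0.586). Ly6a fell by a log2 fold change of -0.95 (edgeR adjusted p = 0.0235, in 2 of 2 days), and the call was lost with types taken from clusters (adjusted p = 0.0770). Ly6c2 in the same cells stood at 1742, 1523, 1779 and 1870 CPM (log2 fold change 0.07, adjusted p = 0.877), and Ly6e at 751, 905, 971 and 1130 CPM (0.38, adjusted p = 0.269).

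The make-up of the CD8 T cells differed between genotypes. Naive-like cells were 52 of 667, 211 of 373, 37 of 235 and 34 of 59. The 6 naive-like markers summed to 145, 1122, 354 and 1411 CPM and the 5 cycling markers to 946, 133, 649 and 155 CPM. Among naive-like cells the Ly6a ratio was 1.26 (1.05 to 1.53) at day 9 and 0.846 (0.611 to 1.17) at day 12. Among the other CD8 T cells it was 0.448 (0.412 to 0.486) and 0.586 (0.461 to 0.736), lower at both days. These cells still differed in make-up, because 9 of 9 measured naive and memory T cell genes were at least 1.5-fold higher in the knockout at each day (median log2 ratio 2.49 and 1.59). Of all genes, 15.7% were that much higher in these cells at day 9 and 20.5% at day 12, and the part of make-up in the Ly6a values was not tested.

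The remaining lymphoid types gave no call for genotype. NK cells held 356, 69.2, 235 and 207 CPM of Ly6a, low only in the knockout day 9 library, with ratios of 0.195 and 0.882 (log2 fold change -1.17, edgeR adjusted p = 0.990). Other T cells held 511, 376, 784 and 819 CPM (-0.22, adjusted p = 1.00). Conventional CD4 T cells, with 16 to 49 cells per library and no test, stood at 2619, 1734, 1956 and 1320 CPM, lower in the knockout. Their ratios were 0.662 (0.583 to 0.752) at day 9 and 0.675 (0.529 to 0.852) at day 12. In regulatory T cells it stood at 3613, 1871, 2618 and 2513 CPM, lower at day 9 (0.518) but near 1 at day 12 (0.960, interval 0.839 to 1.10).

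**Figure D4:**
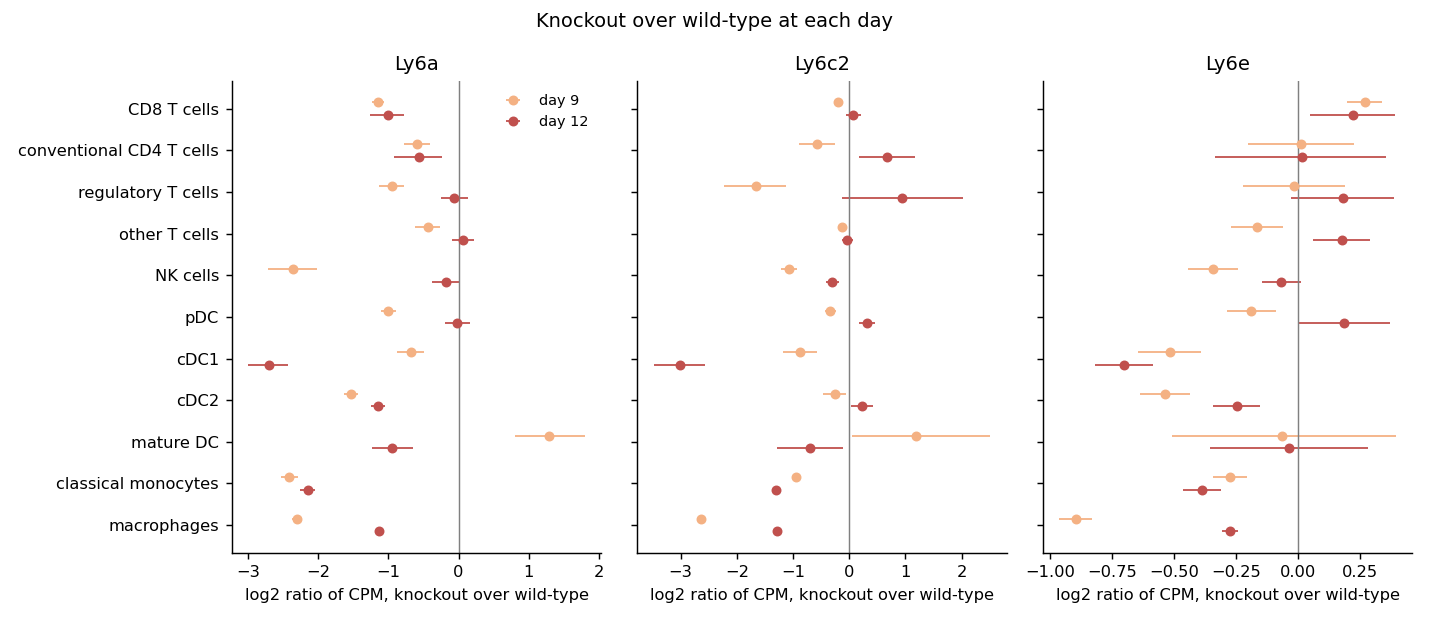
Knockout to wild-type ratio (log2) of Ly6a, Ly6c2 and Ly6e by cell type, day 9 and day 12 shown apart, with exact 95% intervals of counting error. Ly6a lies below 0 at both days in 9 of 11 types, and Ly6e stays within 1.5-fold at 1 or both days in every type.

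Counted over 11 types with enough UMIs at both days, Ly6a was lower in the knockout at both days in 9, with the interval below 1 at both days in 6. For Ly6c2 these counts were 5 and 4 of 11, and for Ly6e 6 and 4 of 11. Ly6e was higher at both days, with intervals above 1, in 1 type, CD8 T cells (ratios 1.21 and 1.16). Ly6a was at least 1.5-fold lower at both days in 5 types, of which 2 were cDC1 and cDC2, and Ly6e in 0. The share of all genes that met this rule is given above for the dendritic types only, so the count over all types stands without a background. Since Ly6a was picked for being lower in dendritic cells, its counts describe the choice as well as the data.

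Interferons induce Ly6a and Ly6e, so lists of other interferon response genes were set beside them, counting a gene as lower when its ratio was at least 1.5-fold below 1. Of the interferon-gamma response list, 20 of 27 measured genes were lower in knockout cDC2 at day 9 (median log2 ratio -0.91) and 11 of 28 at day 12 (-0.52). Over all genes in cDC2 the shares lower were 15.4% and 10.6% and the medians 0.02 and -0.02. Gbp4, a guanylate-binding GTPase, went from 110 to 27.7 CPM at day 9 and from 80.9 to 18.3 CPM at day 12, and Iigp1, an immunity-related GTPase, from 215 to 74.6 and from 104 to 16.6 CPM. Of the type I interferon list, 25 of 25 were lower in cDC2 at day 9 (median -1.75) and 0 of 25 at day 12 (median 0.20), beside Ly6a ratios of 0.346 and 0.451. In pDC 13 of 13 were lower at day 9 and 1 of 8 at day 12, beside Ly6a ratios of 0.500 and 0.989. In NK cells 18 of 24 and 5 of 25 were lower, beside 0.195 and 0.882. Over all genes the shares lower were 13.1% and 10.3% in pDC and 10.4% and 6.01% in NK cells.

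Macrophages differed between the lists in a similar way. Of the interferon-gamma list 21 of 28 genes were lower at day 9 (median -1.32) and 24 of 29 at day 12 (-1.03), and edgeR called 12 of 30 lower and 0 higher, Irf1 and Gbp2b among them. Of the type I list 25 of 25 were lower at day 9 (-1.82) and 1 of 25 at day 12 (-0.04). In classical monocytes the interferon-gamma list had 12 of 28 lower at day 9 and 19 of 27 at day 12 (medians -0.56 and -0.86), and edgeR called Gbp2b alone, 1 of 29. In cDC1, where Ly6a was lowest at knockout day 12, 8 of 23 were lower at day 9 and 15 of 26 at day 12 (medians -0.45 and -0.79). Of the type I list 22 of 24 were lower in classical monocytes at day 9 and 6 of 24 at day 12, while Ly6a was lower at both days. In cDC1 18 of 21 and 4 of 24 were lower, beside Ly6a ratios of 0.624 and 0.153. In mature dendritic cells 10 of 16 and 2 of 23 were lower, beside 2.44 and 0.519, and 7 of 23 were higher at day 12. Over all genes the shares lower at day 9 and day 12 were 15% and 5.58% in macrophages, 14.3% and 9.78% in classical monocytes, and 13.9% and 11.3% in cDC1. In mature dendritic cells they were 15.4% and 10.8%, and 9.95% of genes were higher at day 12.

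CD8 T cells did not share this direction. At day 9, 15 of 26 genes of the interferon-gamma list were at least 1.5-fold higher in the knockout (median 0.98) while Ly6a was lower. Of all genes 13.7% were that much higher at day 9 (median -0.13). At day 12, 4 of 21 were lower and 0 higher (median -0.29), while 23.5% of all genes were lower. The fit called 3 of 26 higher, Gbp8, Tgtp1 and Socs1 (edgeR). Among the CD8 T cells not gated as naive-like, 13 of 25 were higher at day 9 (median 0.67), beside 15.7% of all genes. At day 12, 3 of 20 were higher and 3 lower there (median 0.03), beside 20.5% and 19.7% of all genes.

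**Figure D5:**
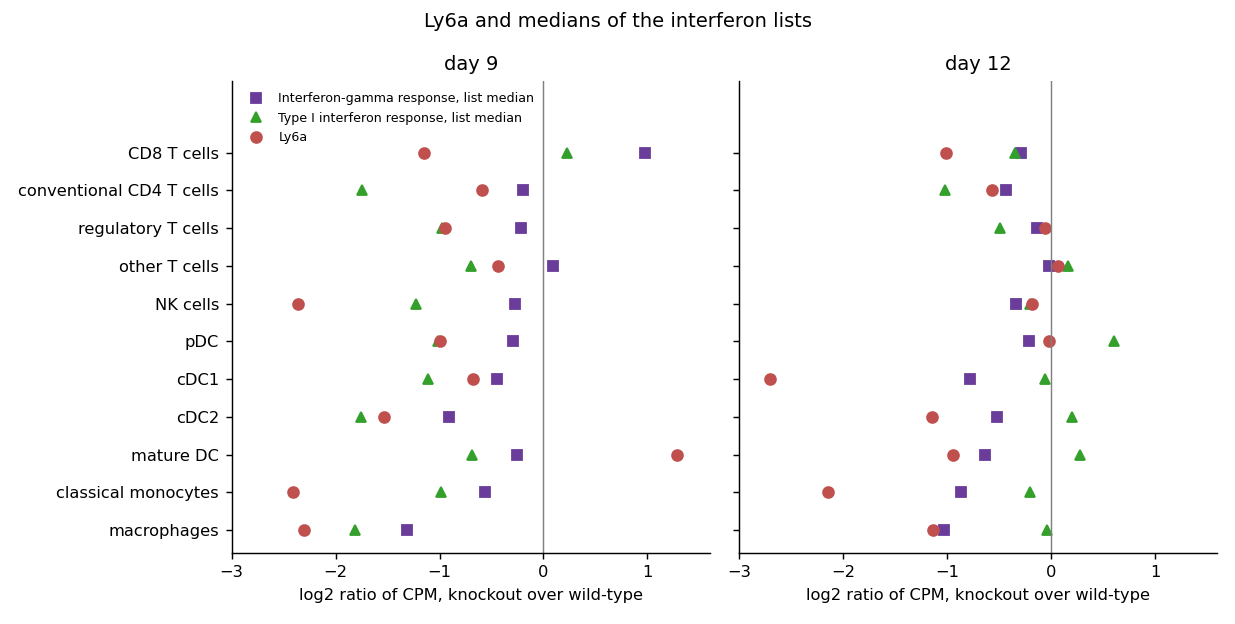
Median knockout to wild-type log2 ratio of the interferon-gamma and type I interferon response lists beside the log2 ratio of Ly6a, by cell type (y axis) and day (panels). In cDC2 the type I median is -1.75 at day 9 and 0.20 at day 12, and the interferon-gamma median is -0.91 and -0.52.

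Day 12 was compared with day 9 in the same fits, cDC2 included, where day is not what the members were chosen for. Since each day has its own pair of libraries, the day cannot be told apart from the run in which they were prepared. Of 25 tests of members, 2 passed higher and 1 lower. Across all genes the shares passing higher and lower were 0.121% and 0.0965% in CD8 T cells, 0.975% and 1.54% in other T cells, 0.28% and 0.612% in NK cells, 0.728% and 0.442% in cDC2, 0.0152% and 0.0761% in classical monocytes, and 0.654% and 0.436% in macrophages. Ly6a rose in classical monocytes, by 2.96 times in wild-type and 3.55 times in knockout libraries (log2 fold change 1.76, edgeR adjusted p = 0.0320). The call was lost with RLE factors, and with types taken from clusters the log2 fold change was 0.86 (adjusted p = 0.0125). The gated monocytes also changed cluster between the days: cluster 11, mostly of macrophages and with 1766 CPM of Ly6a, held 37.0% of them at knockout day 12, and in the wild-type cluster 7 went from 31.0% to 12.3%. In macrophages Ly6a was 1.19 and 2.68 times as high at day 12, which did not pass (0.83, adjusted p = 0.232).

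Ly6a also rose from day 9 to day 12 in other T cells, by 1.53 times in wild-type and 2.17 times in knockout libraries (log2 fold change 0.81, edgeR adjusted p = 0.0340). That call was lost in 4 of 7 alternatives. Ly6i fell in cDC2, to 0.553 and 0.281 of its day 9 level in wild-type and knockout (-1.23, adjusted p = 0.0236), and lost the call under the stricter gate and with DESeq2. Neither Ly6c2 nor Ly6e passed for day in any of the 6 types tested, with log2 fold changes of 0.61 for Ly6c2 in classical monocytes (adjusted p = 0.133) and 0.37 for Ly6e in CD8 T cells (adjusted p = 0.527) the largest for each.

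Patterns over cell types were compared by Pearson correlation of log2(CPM + 10) over 32 sums of a type in a library with at least 50 cells, drawn from 10 types and 4714 genes. These points share libraries and markers, so the values describe likeness only. Ly6d was most like Mzb1, Pgam2, Fbxl13, Sh3bgr and Klk1 (r = 0.99 each), all followed by the single pDC sum in the set. Ly6i was most like Il13ra1 and Cd302 (0.90 each), Gbp2, Sirpa and Gsdmd (0.89 each). Ly6c2 was most like Fyb (0.87), Ly6e like Lamtor4 and Max (0.91 each), and Ly6a had weaker matches, led by Sectm1a (0.72), Ndufc1 and Ifit3b (0.71 each). Ly6c1 reached at most 0.59, with Igtp, and 0.58 with Ly6c2.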

How the data were processed

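The deposited files hold UMI counts per gene and cell barcode for 4 libraries. Per the submitters' processing notes, the tool was Cell Ranger 2.0.2 and the build mm10; the handling of reads that match several genes is not given there. The members and the gene lists were chosen with earlier results of these data known, and the scoring of the marker gates was set after the markers had been seen. Barcodes with at least 200 genes and at most 10% mitochondrial and 5% haemoglobin UMIs were kept, less the highest Scrublet scores (0.8% per 1000 barcodes, since its own threshold marked 3, 6, 1 and 22), leaving 1752, 3625, 3566 and 2001 cells. Each cell was placed by its own markers, and cells that passed more than 1 gate (208, 265, 166 and 139) or none (95, 579, 597 and 322) were left out.

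Counts were summed per type and library and scaled to 1000000 UMIs. Levels have exact Poisson intervals, shares exact binomial and ratios exact conditional 95% intervals. Tests used edgeR 4.0.16 (quasi-likelihood, TMM, filterByExpr, R 4.3.3) with Benjamini-Hochberg adjustment over all genes at 0.05, on types with at least 50 cells in every library (20 for pairs of types), with day and genotype, or library and type, as terms. Ratios needed 20 UMIs over the pair of libraries. Regulatory T cells, pDC and non-classical monocytes had too few cells for their pairs. Alternatives were DESeq2 1.42.0, RLE factors, no expression filter, thinning to 2000 UMIs, a mitochondrial limit of 5%, doublets kept, a gate asking for 1 marker more, and Leiden clusters (scanpy 1.11.5, leidenalg 0.10.2, resolution 2, 32 clusters). Leaving out each library for pairs of types was added after seeing the data. The fits were tested on simulated counts. The text names all 6 members, the 5 genes most like each, and up to 4 listed genes with the largest mean ratio in 1 direction. Gene positions, coding sequences, 3′ untranslated regions and 3′ ends are from GENCODE vM21. The promoters and the miR-155 sequence are from RefSeq (GRCm38.p6). A motif and the names of some listed genes are not reported here.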

Additional observations from a re-analysis of the deposited data

Results flagged for a closer look

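Several members moved in opposite directions in the 2 pairs of libraries, at least 1.5-fold on each side and with intervals that exclude 1; none of these differences was tested, since each pair is 1 library against 1. All values are log2 ratios. For knockout over wild-type, Ly6i in cDC1 was 2.23 at day 9 and -2.74 at day 12, from 4 to 43 UMIs per library. Ly6a in mature dendritic cells was 1.29 and -0.94, and Ly6c2 in the same cells 1.19 and -0.70. The Ly6a value at day 9 came from few cells and changed sign under the stricter gate and with clusters. The Ly6c2 value at day 9 rested on 34 knockout and 8 wild-type UMIs.

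For day 12 over day 9, Ly6a in NK cells was -0.60 in wild-type and 1.58 in knockout libraries, the knockout day 9 library holding 84 UMIs. Ly6i in cDC1 was 1.54 and -3.43, Ly6a in mature dendritic cells 0.78 and -1.45, and Ly6c2 in mature dendritic cells 1.11 and -0.78. The values of mature dendritic cells use the same day 9 counts as those above, with the same limits. In classical monocytes Ly6i was 1.23 in wild-type and -1.01 in knockout.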

How the results depend on the processing

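With 1 library per group, a fit has 1 or 3 residual degrees of freedom, and the edgeR p-values also lean on a spread estimated over all genes. The weight of that shared spread ran from 4.61 prior degrees of freedom in classical monocytes to 121 in other T cells. Leaving out a library from the genotype or day fits leaves no residual, so each day's ratio is given in its place. No paired analysis was possible because each group holds 1 library, so replicate numbers pair nothing; day, or the library, enters each fit as a term. No subtype was defined for dendritic types or classical monocytes, so that alternative was not run there. Rare types and sparse members are limited by UMI counts.

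The 4 genotype calls of members became 2 with doublets kept and 11 without the expression filter. The 3 day calls became 1 with RLE factors, 5 without the filter and 1 with DESeq2. The 13 calls between types ranged from 9 to 12 when a library was left out. Dendritic log2 ratios of Ly6a that moved beyond their interval were, for cDC1, -1.03 at day 9 with clusters, and at day 12 -2.37 with the stricter gate, -2.13 with clusters and -2.11 thinned. For cDC2 they were -1.07 (stricter) and -1.19 (clusters) at day 9, and -1.03 (stricter and thinned) at day 12. For mature dendritic cells they were -1.35 (stricter) and -2.47 (clusters) at day 9, a reversal, and -1.70 (stricter), -1.36 (clusters) and -1.33 (thinned) at day 12. In conventional CD4 T cells the mean was 27.6 CPM for Ly6c1 and 698 CPM for its sum with Ly6c2, of which Ly6c2 alone gave 670 CPM. With clusters, mean levels moved from 4452 to 3524 CPM for Ly6c2 in pDC and from 129 to 225 CPM for Ly6i in classical monocytes. Unthinned mean shares with Ly6a were 65.6% in cDC1 and 74.1% in CD8 T cells. Uncalled values that changed sign were Ly6e in naive-like against other CD8 T cells (-0.0097 without wild-type day 9; up to 0.24 with another library left out), Ly6i in mature dendritic cells against cDC2 (-1.09 with clusters, -0.098 to 0.60 with a library left out) and, in classical monocytes against macrophages, Ly6c1 (-0.20 with clusters) and Ly6i (-0.22 to 0.56 with a library left out). The other values for single members all kept their side. Of these, 317 kept their call status or stayed within their interval. A call was lost in 39 and gained in 24, and 25 ratios moved beyond their interval without a test. The cause was not tested.

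Calls over all genes moved widely. For genotype they ran from 177 to 1050 around 553 in CD8 T cells, 3 to 56 around 44 in other T cells, 3 to 51 around 2 in NK cells, 1 to 170 around 7 in classical monocytes and 19 to 410 around 86 in macrophages. For day they ran from 7 to 280 around 18 in CD8 T cells, 0 to 193 around 168 in other T cells, 17 to 553 around 70 in NK cells, 3 to 729 around 90 in cDC2, 0 to 508 around 6 in classical monocytes and 46 to 479 around 105 in macrophages. Between types, with each library left out in turn included, they ran from 275 (without wild-type day 12) to 1399 around 700 for CD8 T against NK cells, 474 (without knockout day 9) to 2078 around 1028 for naive-like CD8 T cells, 1147 to 2654 around 2075 for cDC1 against cDC2, 3203 to 4694 around 4225 for mature dendritic cells against cDC2, and 867 (without knockout day 9) to 1921 around 1649 for classical monocytes against macrophages. Without knockout day 9, CD8 T against NK cells gave 385, and naive-like CD8 T cells gave 647 without wild-type day 9 and 669 without wild-type day 12.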

Other observations

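Of 35 other genes of the Ly6 and uPAR family, 32 were listed, 16 had 0 UMIs in kept cells and 9 had at least 20 UMIs. Plaur, the urokinase receptor, collected 10298 UMIs and Cd177, a neutrophil surface protein, 1229, both with their highest level in classical monocytes (314.5 and 72.7 CPM). Lynx1 (32.8 CPM) and Cd59a (21.8 CPM), an inhibitor of complement, were highest in pDC, as was Ly6k (38.0 CPM).

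Non-classical monocytes, counted in 4, 98, 11 and 12 cells, held 38 UMIs of Ly6a in the wild-type day 12 library and 1 in the knockout day 12 library. The ratio of their levels was 0.0248, with a counting interval from 0.000611 to 0.146. Ly6i in these cells stood at 83.8, 275, 322 and 168 CPM.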
